A study of Mus musculus with 6 samples.

Results

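Hox genes encode homeodomain transcription factors, and 38 mouse Hox genes were examined by name, of 23044 genes present on both array designs used in the study. All 38 had a probe on both designs, and 32 of them were also listed in the authors' deposited table. The cells were sorted from transgenic SMA-GFP mice, which make green fluorescent protein under the promoter of smooth muscle actin (Acta2), and both groups carried this reporter. Both were also sorted as CD45-, which leaves out blood cells, and as CD31-, which leaves out vessel lining cells. Wound cells had high reporter signal (SMA-GFP+++), were taken 7 days after injury and are labelled myofibroblasts, the contractile cells of healing tissue. Skin cells had low reporter signal (SMA-GFP+), came from dermis and are labelled fibroblast-like cells. Each group was measured on 3 one-colour Agilent arrays. Design 026655 carried replicates 1 and 2 of both wound and skin cells, and design 028005 carried 1 unnumbered array of both, named replicate 3 here. Injury, reporter level and tissue changed together, so their parts cannot be told apart, and neither the body site of the dermis and the wounds nor the age of the mice is stated in the labels.

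The mammalian Hox genes lie in clusters named A, B, C and D on separate chromosomes. The number in a gene's name is its paralogue group, and genes with low numbers are switched on earlier and nearer the head, and those with high numbers later and nearer the tail or the limb tip. Hox proteins bind DNA together with TALE cofactors such as the Pbx and Meis proteins, and Polycomb and Trithorax complexes keep each gene off or on through cell divisions. Adult skin fibroblasts keep a Hox pattern that differs between body sites and is used as a marker of positional identity. In human fibroblasts this pattern persists in culture.

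Levels are given on the log2 scale relative to the array's 75th percentile, so that 0 is the signal of that percentile. Levels of different probes were compared only to name the brighter and dimmer probe of a gene. A gene was tested if every array of one or both groups had its brightest probe well above background. The test was limma's moderated fit over 16739 genes with array design as a term, and a gene was called at a Benjamini-Hochberg adjusted p under 0.05. Differences are log2 levels of wound minus skin cells with their standard error (SE). Nothing in the labels says that replicates came from separate animals, so the p-values measure the spread between these arrays only. Of all spots, 64.4% to 71.1% on wound arrays and 65.2% to 72.6% on skin arrays were well above background.

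Of the 38 Hox genes, 29 were tested, and 11 of these were lower and 2 were higher in wound cells. The lower ones were Hoxa10, Hoxa11, Hoxb6, Hoxb9, Hoxc4, Hoxc8, Hoxc11, Hoxd3, Hoxd4, Hoxd8 and Hoxd9, and the higher ones were Hoxa3 and Hoxb2. Of the tested Hox genes 37.9% were thus lower and 6.9% higher, against 15.6% and 18.5% of all 16739 genes. Hoxa11, Hoxc11 and Hoxd3 passed the detection filter through skin cells only, the group where they were higher. The filter thus favoured a lower call for them, and their calls add no support to the share. With detection required on all 6 arrays, 24 Hox genes were fitted, and 11 were lower and 2 higher, among 5031 genes called. These 11 are not the same genes, since Hoxa11, Hoxc11 and Hoxd3 were then not fitted. Hoxa6, Hoxc5 and Hoxc10 were newly called lower, each narrowly (adjusted p = 0.0485, 0.0448 and 0.0486). The share of all genes in each direction is not given for this setting, so these counts have no background beside them. Without the term for array design, 6 Hox genes were called lower and 0 higher. The median difference was -0.57 over the 29 tested Hox genes and 0.04 over all genes tested, and 20 of the 29 differences were below 0. With Hoxa11 and Hoxc11, which had no wound array above background, set at their bounds, the Hox median was -0.56. Within both array designs, every wound array lay below every skin array for 19 of the 38 members, of which Hoxc13 and Hoxd10 were not tested, and above for 4, of which Hoxb13 was not tested. The same was true of 25.2% and 31.8% of all genes tested. In sorted bulk RNA, fewer cells with a Hox transcript and less of it per cell cannot be told apart.

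**Figure D1:**
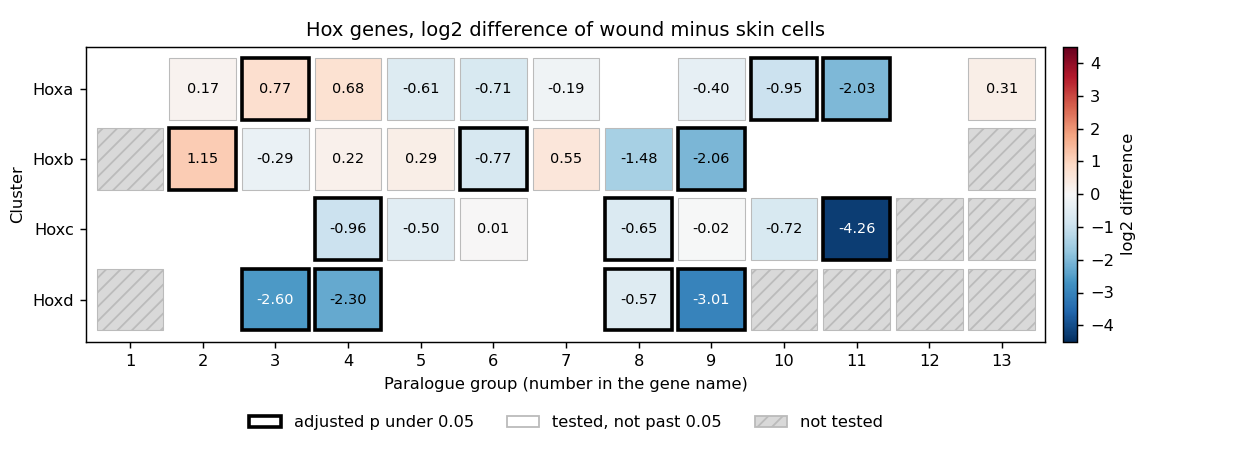
Log2 difference of wound minus skin cells for each Hox gene, with clusters in rows and paralogue groups in columns; thick frames mark an adjusted p under 0.05 and hatching marks genes not tested. The 4 tested Hoxd genes are all lower, the 2 higher genes are Hoxb2 and Hoxa3, and the values for Hoxc11 and Hoxa11 are fitted ones with no wound array above background.

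Markers of other cell types moved with the comparison, in which 18.5% of all genes tested were higher and 15.6% lower. Of 9 keratinocyte markers, 8 were tested and all 8 were lower in wound cells, among them Krt5 with a difference of -4.33 and Krt14 with -2.25. Only 3 of the 9, Krt5, Krt14 and Krt10, were above background on all wound arrays, against 8 on all skin arrays. Krt1, Cdh1, Krt15, Epcam and Dsp passed the detection filter through skin cells only, which favoured a lower call for them. The summed signal of the 9 markers, in units of the array's 75th percentile, was 0.589 to 2.22 on wound arrays and 13.4 to 34.3 on skin arrays. Krt1 and Cdh1, a keratin and the epithelial cadherin, were above background on 0 of 3 wound arrays and on 3 of 3 skin arrays, and were at least 22.8-fold and 10.3-fold lower in wound cells. Of 9 mural cell markers, which mark pericytes and vascular smooth muscle, 6 were higher and 0 lower in wound cells, and their summed signal was 87.4 to 231 on wound arrays and 33.5 to 66.6 on skin arrays. Of 5 tested Schwann cell markers 3 were lower, with a summed signal of 0.801 to 1.82 on wound arrays and 1.39 to 4.43 on skin arrays. Of 3 tested melanocyte markers 1 was lower, with 0.239 to 0.479 on wound arrays and 0.402 to 2.37 on skin arrays. Their part in the Hox differences was not tested.

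The labels were set against marker genes. Acta2, the gene whose promoter drives the reporter by which the cells were sorted, was 4.71 higher in wound cells (SE 0.16, adjusted p = 5.2e-05), and all 6 myofibroblast markers were higher. Mural markers such as Higd1b (5.05) and Rgs5 (4.78) were higher too, so myofibroblast and mural identity cannot be told apart from these values. The 8 skin fibroblast markers were above background on every array of both groups, with a summed signal of 1010 to 3350 on wound arrays and 1190 to 4110 on skin arrays. Of these 8, Pdgfra and Fbln1 were lower in wound cells, with differences of -1.30 and -1.20, and 6 were not called. Of 7 tested white blood cell markers 1 was lower, and the summed signal of the list was 22.8 to 104 on wound arrays and 23.3 to 119 on skin arrays. Itgam made up most of that sum on every array, while Ptprc, which encodes CD45, had means of -5.23 in wound and -5.02 in skin cells. Of 6 endothelial markers 1 was higher, with a summed signal of 5.10 to 12 on wound arrays and 3.65 to 15.8 on skin arrays, most of it from Kdr. Of 2 tested adipocyte markers 1 was higher, with 10.4 to 24.9 on wound arrays and 1.23 to 4.46 on skin arrays. The higher one was Fabp4 (2.76), which made up most of that sum on every array. Adipoq was not called (0.36, adjusted p = 0.459), and Plin1, Lep and Cidec were not tested.

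The Hoxd cluster lies on chromosome 2, and each of its 4 tested members, Hoxd3, Hoxd4, Hoxd8 and Hoxd9, was lower in wound cells. Hoxd3 was tested only because it passed the detection filter in skin cells. The sequences upstream of these neighbouring genes are shown because the genes were lower together. They are the 250 bases before each start on the plus strand in RefSeq's GRCm38.p6, at chr2:74711743-74711992 for Hoxd3, chr2:74721728-74721977 for Hoxd4, chr2:74704365-74704614 for Hoxd8 and chr2:74697513-74697762 for Hoxd9. The array files name build mm9, so these positions belong to the sequence table and not to the probes. Capitals mark matches, on either strand, to TTTATG, a core bound by Cdx and posterior Hox proteins, to CCAAT, the CCAAT box, and to TATAAA, the TATA box.
Hoxd3: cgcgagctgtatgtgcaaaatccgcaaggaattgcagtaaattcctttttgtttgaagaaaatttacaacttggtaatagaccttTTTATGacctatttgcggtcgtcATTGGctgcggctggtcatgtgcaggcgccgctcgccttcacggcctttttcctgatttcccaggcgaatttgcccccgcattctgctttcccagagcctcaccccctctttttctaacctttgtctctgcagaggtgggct
Hoxd4: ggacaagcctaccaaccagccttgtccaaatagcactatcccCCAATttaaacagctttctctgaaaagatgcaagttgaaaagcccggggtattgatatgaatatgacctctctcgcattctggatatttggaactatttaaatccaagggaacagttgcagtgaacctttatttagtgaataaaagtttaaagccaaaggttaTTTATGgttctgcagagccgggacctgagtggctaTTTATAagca
Hoxd8: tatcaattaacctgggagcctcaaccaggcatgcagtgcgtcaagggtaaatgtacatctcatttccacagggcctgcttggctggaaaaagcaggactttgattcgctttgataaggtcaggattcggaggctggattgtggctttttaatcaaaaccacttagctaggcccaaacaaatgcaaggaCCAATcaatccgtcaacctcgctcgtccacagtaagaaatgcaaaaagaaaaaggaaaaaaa
Hoxd9: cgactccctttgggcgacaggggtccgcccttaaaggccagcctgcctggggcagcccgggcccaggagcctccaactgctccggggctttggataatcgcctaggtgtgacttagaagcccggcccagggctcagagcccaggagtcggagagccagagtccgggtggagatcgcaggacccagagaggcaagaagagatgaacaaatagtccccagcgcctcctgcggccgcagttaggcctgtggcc
The Hoxd3 window held 1 TTTATG and 1 CCAAT match. The Hoxd4 window held 1 match of each of these and 1 TATAAA match. The Hoxd8 window held 1 CCAAT match, the Hoxd9 window held 0 matches, and no matches overlapped. Over 32851 mouse promoter windows of the same length, 10.8% held TTTATG, 33.8% held CCAAT and 12.4% held TATAAA, so these matches are a description of the windows and not of binding. The windows held 12, 3, 6 and 13 CG dinucleotides for Hoxd3, Hoxd4, Hoxd8 and Hoxd9, against a median of 6 over all windows.

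Hoxd9, which acts with its paralogues in patterning the upper forelimb of mice, had levels of -3.74, -4.36 and -3.17 on wound replicates 1, 2 and 3, against -0.89, -1.03 and -0.33 on skin replicates 1, 2 and 3. All wound arrays lay below all skin arrays, and the probe was above background on all 6. The mean was -3.76 ± 0.60 in wound cells and -0.75 ± 0.37 in skin cells (SD, n = 3 each), a difference of -3.01 (SE 0.21, adjusted p = 0.000198), or 8.04-fold lower. These SDs also hold the offset between array designs, since levels on design 028005 mostly ran higher, and the SE does not. Hoxd4, needed for the pattern of the neck vertebrae in mice, had levels of -2.86, -2.99 and -2.0 in wound cells, against -0.76, -0.56 and 0.38 in skin cells. The groups did not overlap, and the mean was -2.62 ± 0.54 in wound cells and -0.31 ± 0.61 in skin cells (SD, n = 3 each). The difference of -2.30 (SE 0.15, adjusted p = 0.000163) made Hoxd4 4.93-fold lower in wound cells.

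Hoxd3, needed in mice for the vertebrae nearest the skull, had levels of -5.27, -4.92 and -5.56 in wound cells, where 1 of 3 arrays was above background, against -2.93, -2.98 and -2.03 in skin cells, where all 3 were. Wound arrays lay below skin arrays without overlap. The difference was -2.60 (SE 0.31, adjusted p = 0.00132), between means of -5.25 ± 0.32 in wound cells and -2.65 ± 0.53 in skin cells (SD, n = 3 each). Hoxd8 had the smallest difference of the 4, with levels of -0.11, -0.26 and 1.02 in wound cells and 0.57, 0.47 and 1.33 in skin cells. Within each design the wound arrays were lower, while over all 6 arrays the ranges overlapped. The difference was -0.57 (SE 0.16, adjusted p = 0.0364), a 1.49-fold lower level in wound cells. The Hoxd8 call was lost without skin replicate 1 (adjusted p = 0.156), skin replicate 2 (0.0999), wound replicate 1 (0.0941) or wound replicate 2 (0.0878), with differences of -0.58 to -0.49. It was also lost in the authors' deposited table (-0.63, adjusted p = 0.0594) and with no detection filter (adjusted p = 0.0842).

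The other 5 Hoxd members could not be tested. Hoxd10, Hoxd12 and Hoxd13, which pattern the distal limb, were above background on 0 of 6 arrays. Hoxd11, which patterns the forearm with Hoxa11, was above background on 0 of 3 wound arrays and 2 of 3 skin arrays, with levels of -6.20, -5.99 and -5.79 in wound cells and -3.53, -6.07 and -4.92 in skin cells. Hoxd1 was above background on 1 of 3 wound arrays and 1 of 3 skin arrays. Its levels were -5.59, -5.87 and -4.84 in wound cells and -6.04, -5.74 and -1.27 in skin cells, so skin replicate 3 stood far above the other arrays. Within the cluster, detection on all 3 arrays of a group thus covered Hoxd4, Hoxd8 and Hoxd9 in wound cells and Hoxd3, Hoxd4, Hoxd8 and Hoxd9 in skin cells.

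**Figure D2:**
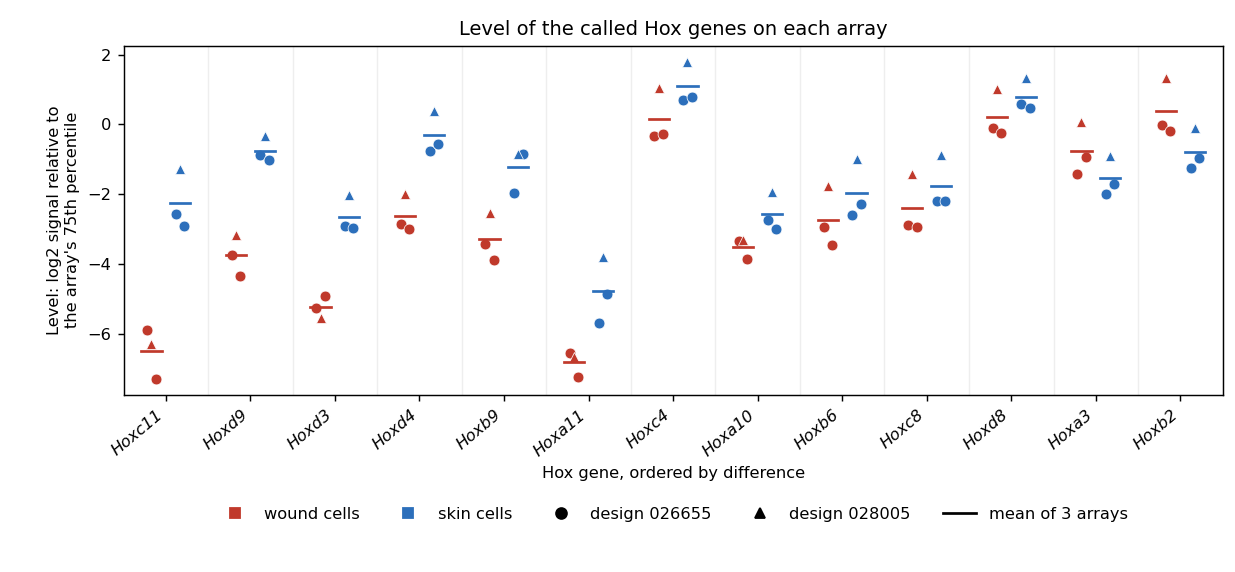
Level of the 13 called Hox genes on each array (log2 signal relative to the array's 75th percentile), wound cells in red left of skin cells in blue, circles for design 026655, triangles for design 028005 and bars for the mean of 3 arrays. Hoxc11, Hoxd9, Hoxd3 and Hoxd4 separate by more than their spread, while Hoxc4, Hoxb6, Hoxc8 and Hoxd8 are lower in wound cells within each design and overlap across designs.

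Among the other posterior genes, those of paralogue groups 9 to 13, Hoxc11 fell furthest in the fit. Hoxc11 is a posterior gene active in the developing hindlimb. It had levels of -5.91, -7.30 and -6.31 in wound cells, where 0 of 3 arrays were above background, against -2.56, -2.93 and -1.28 in skin cells, where all 3 were. The groups were far apart on both designs. The mean was -6.51 ± 0.72 in wound cells and -2.25 ± 0.87 in skin cells (SD, n = 3 each), and the fitted difference was -4.26 (SE 0.42, adjusted p = 0.000697). Because the wound arrays give only an upper limit, a bound was taken, by which Hoxc11 was at least 8.23-fold lower in wound cells. The bound compares the skin mean with a wound mean in which each array counts at its lowest signal above background. Where the Hoxc11 signal itself was higher, that signal was used. Some probes not above background read higher than this lowest signal, such as Hoxd3 on wound replicate 2 (-4.92, against -5.30). Folds given as at least are therefore approximate, and they hold only for the signal used for the levels. Hoxa11, which patterns the forearm and the uterus, was likewise above background on 0 of 3 wound arrays and 3 of 3 skin arrays. Its levels were -6.55, -7.25 and -6.68 in wound cells and -5.70, -4.87 and -3.81 in skin cells, with no overlap. Hoxa11 was at least 1.47-fold lower in wound cells (fitted difference -2.03, SE 0.37, adjusted p = 0.00772), with means of -6.83 ± 0.37 in wound cells and -4.79 ± 0.95 in skin cells (SD, n = 3 each).

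Hoxb9, which acts with its paralogues on the ribs and sternum of mice, had levels of -3.43, -3.89 and -2.53 in wound cells, against -1.96, -0.86 and -0.85 in skin cells. The groups did not overlap and all 6 arrays were above background. The mean was -3.29 ± 0.69 in wound cells and -1.22 ± 0.64 in skin cells (SD, n = 3 each), and the difference was -2.06 (SE 0.33, adjusted p = 0.00432), or 4.18-fold lower. Hoxa10, which sets the lumbar region and patterns the uterus in mice, had levels of -3.36, -3.86 and -3.31 in wound cells and -2.73, -3.01 and -1.94 in skin cells. Every wound array was below every skin array. The Hoxa10 difference was -0.95 (SE 0.22, adjusted p = 0.0202), a 1.93-fold lower level in wound cells. That call was lost without skin replicate 1 (adjusted p = 0.072), without wound replicate 2 (0.0637) or without design 028005 (-0.74, adjusted p = 0.0837), and with no detection filter (0.0533).

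The background correction changed the size of the decreases. After a normexp correction with an offset of 50 on the median signal, chosen after the data were seen, Hoxc11 differed by -1.45, Hoxd9 by -1.90, Hoxd3 by -0.97, Hoxd4 by -1.74, Hoxb9 by -1.39 and Hoxa10 by -0.49. All 6 were still called. Hoxa11 differed by -0.36 and was not called (adjusted p = 0.126). The Hoxc11 and Hoxa11 decreases were then smaller than their bounds of 3.04 and 0.56 log2 units. Those bounds thus do not hold after normexp. Over the tested Hox genes, the median difference was then -0.25.

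Of the 15 central genes, paralogue groups 4 to 8, all were tested, 5 were lower and 0 were higher. The shares over all genes tested were 15.6% lower and 18.5% higher. Beside Hoxd4 and Hoxd8 these were Hoxc4, Hoxc8 and Hoxb6. Hoxc4, one of the anterior members of its cluster, had levels of -0.34, -0.27 and 1.05 in wound cells and 0.71, 0.79 and 1.80 in skin cells. Within both designs wound cells were lower, with differences of -1.05, -1.06 and -0.76 between arrays of the same number. Hoxc4 fell by 0.96 on the log2 scale (SE 0.15, adjusted p = 0.00409), a 1.94-fold lower level. Hoxc8, which acts on the thoracic skeleton and on forelimb motor neurons in mice, had levels of -2.88, -2.94 and -1.42 in wound cells and -2.20, -2.20 and -0.88 in skin cells. Wound arrays were lower within each design, and the difference was -0.65 (SE 0.14, adjusted p = 0.0143). It was lost without skin replicate 1 (-0.64, adjusted p = 0.0759) and, narrowly, without skin replicate 2 (-0.64, adjusted p = 0.0502).

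Hoxb6, a gene of the trunk mesoderm, had levels of -2.95, -3.47 and -1.78 in wound cells and -2.60, -2.28 and -1.0 in skin cells. Wound arrays were lower within each design, and the gap was narrow for replicate 1. The difference was -0.77 (SE 0.20, adjusted p = 0.0258), a 1.70-fold lower level in wound cells. The Hoxb6 call was lost without skin replicate 1 (adjusted p = 0.0561), skin replicate 2 (0.0863) or wound replicate 2 (0.0629), and without design 028005 (0.0814), with differences of -0.86 to -0.62. With no detection filter its adjusted p was 0.0643.

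Hoxb2 and Hoxa3, both in the anterior paralogue groups 1 to 3, were higher in wound cells. Hoxb2, which is needed for facial motor neurons in the hindbrain of mice, had levels of -0.03, -0.19 and 1.33 in wound cells and -1.25, -0.97 and -0.10 in skin cells. Wound arrays were higher within each design. The mean was 0.37 ± 0.84 in wound cells and -0.78 ± 0.60 in skin cells (SD, n = 3 each), and Hoxb2 was 2.21-fold higher (difference 1.15, SE 0.17, adjusted p = 0.00378). Hoxa3, which is needed for the thymus, the parathyroid and the throat cartilages of mice, had levels of -1.43, -0.95 and 0.08 in wound cells and -2.0, -1.70 and -0.92 in skin cells. Its brightest probe was higher in wound cells within each design, with a difference of 0.77 (SE 0.20, adjusted p = 0.0279).

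The Hoxa3 call rests on that probe. A second and far dimmer Hoxa3 probe had levels of -6.01, -6.01 and -6.83 in wound cells and -5.55, -5.02 and -4.62 in skin cells, so it ran the other way. With the mean of both probes the Hoxa3 difference was -0.22 (adjusted p = 0.447), and in the authors' deposited table it was 0.25 (adjusted p = 0.569). With the brightest probe the call was lost without skin replicate 1 (0.71, adjusted p = 0.106), without wound replicate 2 (0.66, adjusted p = 0.0773), without design 028005 (0.66, adjusted p = 0.111), with no detection filter (adjusted p = 0.0684) and with the percentile taken over detected probes (0.70, adjusted p = 0.0525). Hoxb3, also anterior, had 2 probes that disagreed too. Its brighter probe had levels of -2.24, -1.76 and -0.94 in wound cells and -1.79, -1.55 and -0.73 in skin cells (difference -0.29, adjusted p not past the threshold). The other Hoxb3 probe read -2.98, -3.28 and -1.90 in wound cells and -4.51, -3.89 and -2.67 in skin cells. No direction is given for Hoxb3.

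Several members with bright probes showed little difference. Hoxc6, a gene of the thoracic trunk, had levels of 2.62, 2.59 and 3.84 in wound cells and 2.64, 2.49 and 3.91 in skin cells. The arrays of design 026655 were interleaved, and the difference was 0.01 with a 95% interval of -0.34 to 0.35. Hoxc9, which sets thoracic motor neuron identity in mice, had levels of 1.21, 0.92 and 2.17 in wound cells and 1.03, 0.99 and 2.35 in skin cells. Its interval ran from -0.41 to 0.36 around a difference of -0.02. Hoxa7 (difference -0.19) and Hoxb4 (difference 0.22), which acts in blood stem cells as well as in the trunk, had intervals of -0.60 to 0.22 and -0.17 to 0.61. All 4 intervals, unadjusted for the number of genes, lie within 1 log2 unit of 0.

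The other uncalled members were spread more widely in their differences. Hoxb8, whose loss causes excessive grooming in mice, had levels of -3.89, -6.13 and -2.32 in wound cells, with 2 of 3 arrays above background, and -3.62, -2.97 and -1.30 in skin cells. Wound replicate 2 stood lowest. The difference was -1.48 with an interval of -2.87 to -0.10 (adjusted p = 0.0935), and without wound replicate 1 it was -2.06 and called (adjusted p = 0.0339). Without wound replicate 2 it was -0.78 and not called (adjusted p = 0.0826). Hoxc10, Hoxa6, Hoxa5, Hoxc5 and Hoxa9 had differences of -0.72, -0.71, -0.61, -0.50 and -0.40 and were not called. Of these, Hoxc10 was called without wound replicate 1 (-0.98, adjusted p = 0.0152) and Hoxa6 without wound replicate 2 (-0.96, adjusted p = 0.0142). Hoxa4, Hoxb7, Hoxa13, Hoxb5 and Hoxa2 had differences of 0.68, 0.55, 0.31, 0.29 and 0.17 and were not called, and of these Hoxb7 was called without wound replicate 2 (0.76, adjusted p = 0.0386). Hoxa13, which patterns the hand and foot and the lower urogenital tract, was above background on 3 of 3 wound arrays and 2 of 3 skin arrays.

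**Figure D3:**
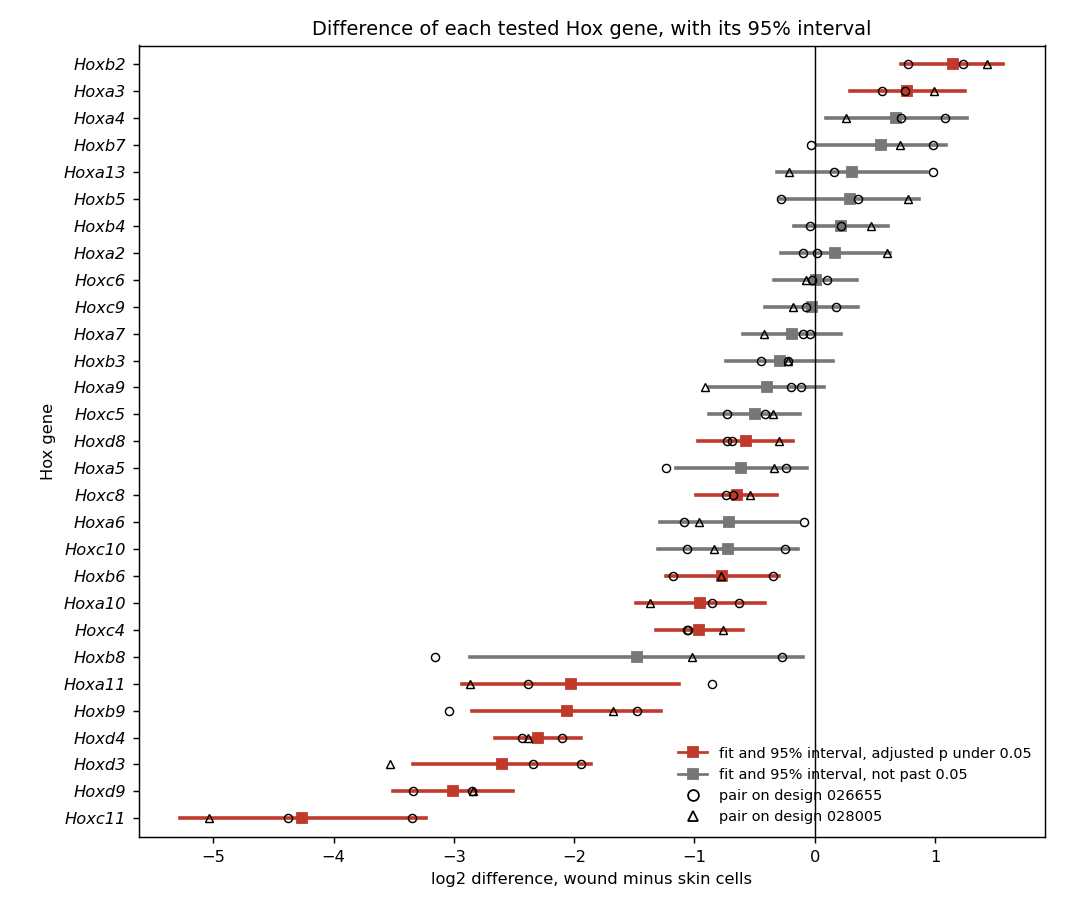
Log2 difference of wound minus skin cells for the 29 tested Hox genes (squares) with 95% intervals, in red where the adjusted p was under 0.05, with open symbols for the difference between arrays of the same replicate name on design 026655 (circles) and 028005 (triangles). Hoxd9, Hoxd4 and Hoxb9, above background on all 6 arrays, have intervals wholly below -1, Hoxc6 and Hoxc9 lie near 0, and the fitted values of Hoxc11 and Hoxa11 rest on wound arrays not above background, with bounds of 8.23-fold and 1.47-fold.

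Detection was also counted by position along the clusters. A gene counted as detected when any of its probes was well above background. Of 16 posterior members, 7 were detected on all wound arrays and 8 on all skin arrays, while 7 were detected on no wound array and 4 on no skin array. Of 15 central members, 14 were detected on all wound arrays and 15 on all skin arrays. Of 7 anterior members, 4 were detected on all wound arrays and 5 on all skin arrays. Over all 38, 24 were detected on all 6 arrays, 25 on all wound arrays and 28 on all skin arrays, and Hoxb1, Hoxd10, Hoxd12 and Hoxd13 on none.

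**Figure D4:**
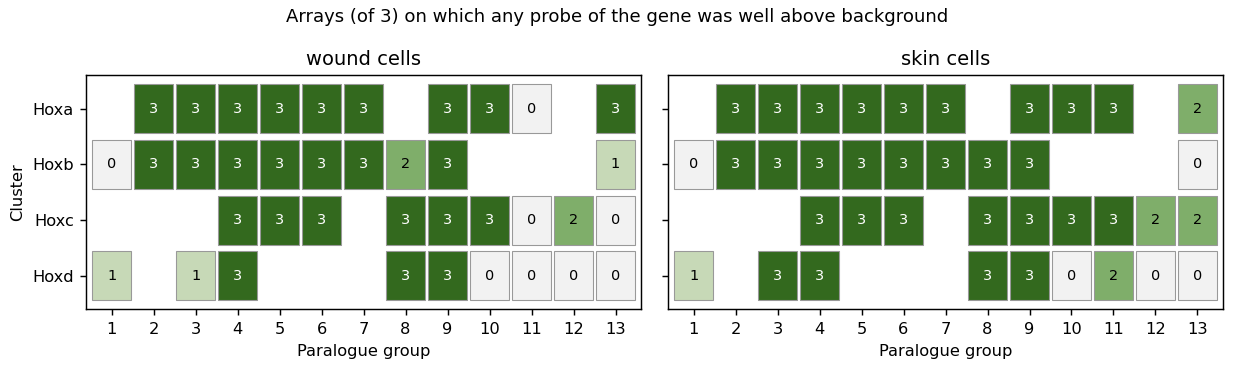
Number of arrays, of 3, on which any probe of each Hox gene was well above background, for wound cells (left) and skin cells (right), with clusters in rows and paralogue groups in columns. Hoxa11, Hoxc11 and Hoxd3 stand at 0, 0 and 1 in wound cells and at 3 each in skin cells.

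The members not yet described were near or below background. Hoxc13, a regulator of hair and nail keratins, was above background on 0 of 3 wound arrays and 2 of 3 skin arrays, with levels of -8.12, -7.21 and -6.70 in wound cells and -5.14, -5.78 and -3.06 in skin cells. The keratinocyte markers given above ran the same way, and a link between them and Hoxc13 was not tested. Hoxb13, a gene of the tail end of the body and of the prostate, was above background on 1 of 3 wound arrays and on 0 of 3 skin arrays. Its level on wound replicate 1 was -4.66, against -7.15 and -6.71 on the other wound arrays and -7.83, -7.32 and -7.38 on skin arrays. Hoxc12 was above background on 2 of 3 wound arrays and 2 of 3 skin arrays, with overlapping levels. Hoxb1, which specifies part of the hindbrain, had levels of -8.01 to -6.40 in wound cells and -7.87 to -6.27 in skin cells.

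By paralogue group, the 5 tested anterior genes had 2 called higher and 1 lower with a median difference of 0.17, the 15 central genes had 5 lower with a median of -0.57, and the 9 tested posterior genes had 5 lower with a median of -0.95, or -0.72 with Hoxa11 and Hoxc11 at their bounds. By cluster, Hoxa had 1 higher and 2 lower of 10 tested, Hoxb 1 higher and 2 lower of 8, Hoxc 0 higher and 3 lower of 7, and Hoxd 0 higher and 4 lower of 4. These calls, by paralogue group and by cluster, stand beside 15.6% lower and 18.5% higher over all genes tested. Among the lower ones, Hoxd3, Hoxa11 and Hoxc11 passed the detection filter through skin cells only. The median differences were -0.30, -0.03, -0.65 and -2.45 for Hoxa, Hoxb, Hoxc and Hoxd. A difference between clusters or between paralogue groups was not tested. Calls within a paralogue group are given for groups 4 and 9, without a test of the difference between members. In group 4, Hoxc4 and Hoxd4 were lower while Hoxa4 (0.68) and Hoxb4 (0.22) were not called, and in group 9 Hoxb9 and Hoxd9 were lower while Hoxa9 (-0.40) and Hoxc9 (-0.02) were not called.

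Noncoding RNAs of the clusters gave a further readout. Of 17 listed, 3 were on the arrays, and 2 of these were lower in wound cells, as were 15.6% of all genes tested. Hoxaas3, an antisense RNA of the Hoxa cluster, had levels of -4.20, -3.89 and -3.39 in wound cells and -2.11, -1.81 and -1.23 in skin cells. It fell by 2.11 (SE 0.17, adjusted p = 0.000325), with no overlap. Of its Hoxa neighbours, Hoxa3 had a brighter probe that was higher and a dimmer one that was lower in wound cells. Hoxa4 (0.68), Hoxa5 (-0.61), Hoxa6 (-0.71) and Hoxa7 (-0.19) were not called. Hoxd3os1, which is transcribed opposite to Hoxd3, had levels of -4.77, -4.91 and -3.96 in wound cells and -2.73, -3.37 and -1.64 in skin cells. Its difference was -1.97 (SE 0.23, adjusted p = 0.00122), beside -2.60 for Hoxd3. Hoxa11os, opposite to Hoxa11, differed by -0.72 and was not called (adjusted p = 0.125). Each of these 3 values comes from its own probe.

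The genes that work with or upstream of the Hox genes were read from the same fit. Of 11 TALE cofactors, all tested, 3 were higher and 1 lower, with a median difference of -0.05. Over all genes tested, 18.5% were higher and 15.6% lower, and no result about the cofactors as a list is read from their counts. Pbx3, a partner that stabilises Hox proteins on DNA, had levels of 0.97, 0.84 and 1.92 in wound cells and -0.51, -0.15 and 0.56 in skin cells, and was 1.28 higher (SE 0.16, adjusted p = 0.00186). Meis1, the cofactor of posterior as well as anterior Hox proteins, had levels of 1.47, 1.43 and 2.69 in wound cells and 2.54, 2.52 and 3.69 in skin cells, and fell by 1.06 (SE 0.14, adjusted p = 0.00193). Wound and skin arrays did not overlap within either design for Pbx3 and Meis1. Pbx3 was read with a different probe on each design, so its levels are comparable only within a design. Pknox2 (0.92, adjusted p = 0.0163) and Meis3 (0.86, adjusted p = 0.0333) were the other higher ones.

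Of 34 Polycomb and Trithorax regulators, all tested, 2 were higher and 9 lower, with a median difference of -0.29. The shares over all genes tested were 18.5% higher and 15.6% lower. Cbx8, a subunit that reads the repressive histone mark, fell by 1.64 (adjusted p = 0.00241). Ezh1, an enzyme that writes that mark, fell by 1.30 (adjusted p = 0.00135). The higher ones were Dot1l, a histone methyltransferase (0.86, adjusted p = 0.00956), and Phc2, a Polycomb subunit (0.76, adjusted p = 0.036). Both repressive and activating components were in this list, so its counts name no direction for the Hox genes.

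Of 17 genes of Cdx, Evx and retinoid signalling, which set Hox expression in the embryo, 12 were tested. Of these 12, 3 were higher and 5 lower, and the median difference was -0.01. All 12 were above background on every skin array, and 11 on every wound array. The shares over all genes tested were 18.5% higher and 15.6% lower. Cyp26b1, which breaks down retinoic acid, fell by 4.43 (SE 0.23, adjusted p = 0.000102), and Aldh1a1, which makes it, fell by 3.49 (SE 0.26, adjusted p = 0.000258). Aldh1a3, another enzyme that makes it, was higher by 2.75 (SE 0.14, adjusted p = 9.9e-05). Rarb, a retinoic acid receptor and textbook target, was higher by 1.67 (adjusted p = 0.000635), as was Gdf11, a signal that shifts the trunk to posterior identity (1.69, adjusted p = 0.0024). Rxra, a partner receptor, fell by 1.20 (adjusted p = 0.00147).

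Other transcription factors that mark body regions were read in the same way. Of 38 listed, 29 were tested, 6 were higher and 12 lower, with a median difference of -0.15. The shares over all genes tested were 18.5% higher and 15.6% lower. Of the 29, 23 were above background on all wound arrays and 26 on all skin arrays. Some of the lower genes, among them Tbx1, Dlx2 and Lhx2, passed the detection filter through skin cells only. Pitx1 and Lhx8, among the higher ones, passed it through wound cells only. The filter favoured such calls, and they add no support to the counts. Pitx1, which specifies the hindlimb, had levels of -1.91, -2.71 and -1.28 in wound cells and -5.78, -7.70 and -7.64 in skin cells, where 1 of 3 arrays was above background. It was higher in wound cells by 5.07 (SE 0.62, adjusted p = 0.0015). Lhx8, a gene of the jaw and forebrain, was higher by 3.63 (adjusted p = 0.00259), with 2 of 3 skin arrays above background, and Foxf1, a gene of the gut and lung mesenchyme, by 3.33 (adjusted p = 7.38e-05). Tbx1, a gene of the throat and heart, was above background on 0 of 3 wound arrays and was at least 34.6-fold lower (adjusted p = 7.95e-05). Dlx2, a gene of the jaws, was also above background on 0 of 3 wound arrays and at least 6.97-fold lower (adjusted p = 0.000528).

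Lhx2, a gene of the limb bud and of hair follicle stem cells, was lower (difference -3.60, adjusted p = 0.00039), with 2 of 3 wound arrays above background. Tbx5, which specifies the forelimb and was added here after its value was seen as the counterpart of Pitx1, had levels of -5.74, -5.37 and -4.26 in wound cells and -3.94, -3.16 and -2.07 in skin cells. It fell by 2.07 (SE 0.24, adjusted p = 0.00134), with 2 of 3 wound arrays above background. Tbx4, the hindlimb counterpart of Tbx5, also named after its value was seen, had levels of -3.95, -3.34 and -2.35 in wound cells and -5.22, -4.53 and -2.18 in skin cells. Its difference was 0.76 and not called (adjusted p = 0.159), with wound cells higher on design 026655 and lower on design 028005.

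**Figure D5:**
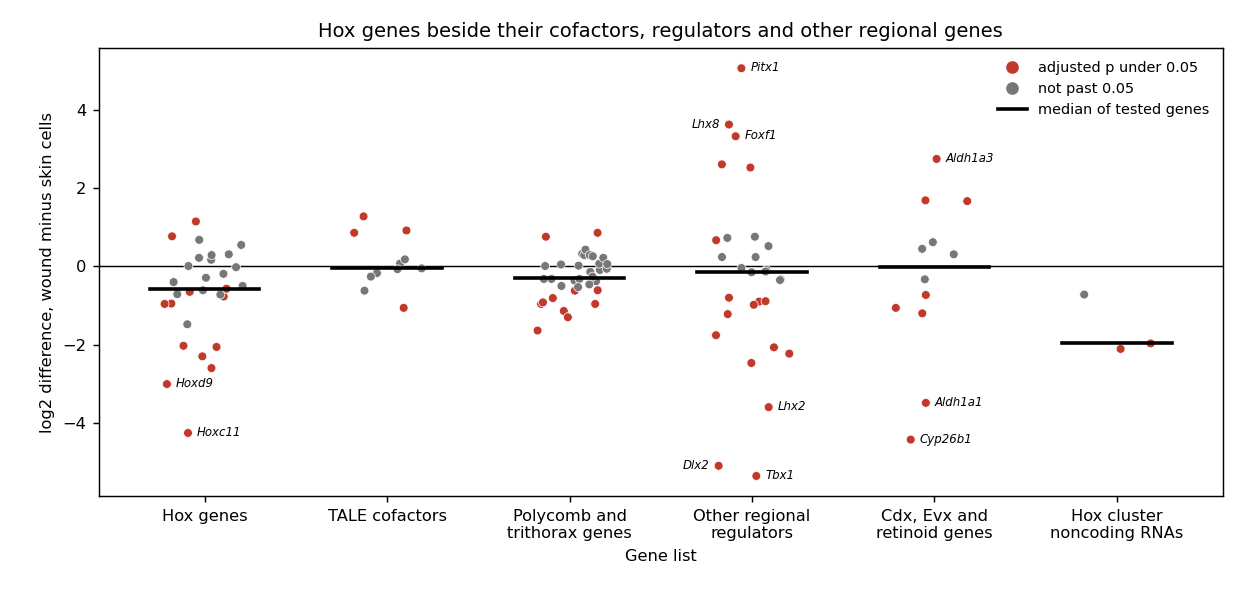
Log2 difference of wound minus skin cells for the tested Hox genes and 5 related lists, each point a gene, red where the adjusted p was under 0.05, with a bar at each list's median and points spread sideways for legibility. The medians are -0.57 for the Hox genes and -0.15 for the other regional regulators, and the points for Hoxc11, Tbx1 and Dlx2 are fitted values with 0 of 3 wound arrays above background, while Pitx1 had 1 of 3 skin arrays above it.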

How the data were processed

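RNA of 6 samples was measured, 3 of wound cells and 3 of skin cells, after low-input amplification and Cy3 labelling per the labels. The authors extracted the spot intensities with Agilent Feature Extraction 10.7.3.1 (build mm9), per the file headers, and the deposited processed signal is a linear intensity after background subtraction. The authors' deposited table, made with GeneSpring 14.5 per the submitters' processing notes, holds values that match log2 differences of the scanner files (slopes of 1.00, 1.00 and 0.973), centred per gene within each design. It therefore gives differences and no levels. Its column medians were -0.282, -0.274 and -0.235 for wound and -0.212, -0.250 and -0.246 for skin replicates 1, 2 and 3. The design text also names a human array, while every organism label is mouse.

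Probes were named through the gene IDs of the deposited table or RefSeq accessions, without version, in a GRCm38.p6 table used for names. On design 026655, 30621 of 39429 probes received a symbol, and on design 028005, 30647 of 55680. The 38 Hox genes had 43 probes, and 6 of them (Hoxa11, Hoxb1, Hoxb13, Hoxc13, Hoxd12 and Hoxd13) were matched by accession alone. Control spots were left out, and so were outlier spots (89 to 678 per wound array, 138 to 249 per skin array). No spot was saturated (0 on each array), and spots of 1 probe were averaged. Each level is the log2 processed signal, scaled to the 75th percentile of its array, of the gene's brightest probe on that design. limma 3.58.1 (R 4.3.3) fitted wound against skin with array design, which is also 1 slide and 1 scan, as a fixed term over 16739 genes of 23044, with 3 residual degrees of freedom. It was tested on simulated data. Of all genes tested, 5702 were called (34.1%).

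The Hox members and all gene lists were chosen with earlier results of these data known. Every called Hox gene is given in full, and up to 3 called genes per direction with the largest change are named from each related list, except 1 that is not reported here. Alternatives were the probe choice, detection filter, normalization, background correction, design term, replicate block, threshold, deposited table and each array left out. Normexp was run on the median signal, as the files were found to hold no mean signal column. Promoter windows came from a RefSeq table in which 22 members had an entry. Other Hox genes were not analysed here, and the number of arrays limits the precision. Python 3.11.15, pandas 2.3.3 and matplotlib 3.10.9 were used.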

Additional observations from a re-analysis of the deposited data

How the results depend on the processing

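Of the 13 called Hox genes, 5 (Hoxb9, Hoxc11, Hoxd3, Hoxd4 and Hoxd9) kept their call under every alternative that could be fitted, of 17 tried. Hoxb2 and Hoxc4 lost theirs only without the array design term (adjusted p = 0.358 and 0.549), and Hoxa11 only under normexp. Without the design term 1765 genes, 0 Hox genes higher and 6 lower were called. That term takes up the offset between the designs. At an adjusted p under 0.01 there were 3195 genes, 1 Hox gene higher and 7 lower. The count of higher Hox genes, 2, became 1 on design 026655 alone, with the mean of all probes, with no detection filter, with the percentile over detected probes and in the authors' deposited table. Leaving out 1 array gave 3756 to 5023 genes, 1 to 2 Hox genes higher and 7 to 12 lower, with the lowest count of lower genes, 7, without skin replicate 1. The median difference over the tested Hox genes, -0.57, was -0.45 with detection required on all 6 arrays, -0.25 under normexp and -0.59 to -0.49 with 1 array left out. The Hoxa3 difference reversed to -0.22 with the mean of all probes, because its dimmer probe ran the other way.

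With a replicate block 5605 genes, 2 Hox genes higher and 11 lower were called, and no Hox call changed. Replicates 1 and 2 share only a number across groups (correlation of deviations 0.153 over 16739 genes). Uncalled genes that became called were Hoxa6, Hoxc5 and Hoxc10 when detection on all 6 arrays was required, Hoxc5 and Hoxc10 with the percentile over detected probes, and Hoxb8 under normexp. Without either array of design 028005 the fit was that of design 026655 alone. Signals near background limit Hoxa11, Hoxc11 and Hoxd3 most, since few or none of their wound arrays were above background, and 9 Hox genes could not be tested. The cause of the other changes was not tested.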
